A study of Homo sapiens with 12 samples.

Results

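The genes described here are 10 genes of calcium handling at the sarcoplasmic reticulum (SR), the internal calcium store of muscle cells: RYR2, ATP2A2, PLN, SLN, CASQ2, TRDN, HRC, JPH2, SLC8A1 and S100A1. They were taken by gene symbol from a table of 61806 genes, and each of the 10 matched 1 row. Their transcripts were measured by bulk RNA-seq in 12 libraries of H1, a wild-type line of human embryonic stem cells, driven through mesendoderm progenitors toward cardiomyocytes. NP-IWP2 cultures stayed in static culture without passaging and received IWP2, an inhibitor of WNT signaling. For P-DF, the culture was passaged on Day 2, that is taken apart and plated anew, and left to differentiate spontaneously in DF medium without the inhibitor. P-IWP2 combined the Day 2 passage with IWP2. Each treatment was sampled on Day 12 and on Day 16 of differentiation with 2 libraries per group, and all groups had the same earlier mesendoderm step with the WNT activator CHIR-99021 and then insulin. NP-IWP2 is the static control of every comparison with passaged cells, and no static group without IWP2 is among these samples. Nothing in the labels says that the 2 libraries of a group came from separate differentiations, so the p-values measure the spread between these libraries, which may be technical.

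In the heart, each beat begins when calcium entering through the cell membrane opens the ryanodine receptor of the SR, encoded by RYR2, and stored calcium floods the cytosol. The muscle relaxes when the pump SERCA2a, a product of ATP2A2, returns calcium to the SR, and when the sodium-calcium exchanger, encoded by SLC8A1, exports it from the cell. Small membrane proteins, phospholamban (PLN) and sarcolipin (SLN), bind the pump and hold it back. Inside the SR, calsequestrin (CASQ2) binds calcium, triadin (TRDN) ties it to the ryanodine receptor, and the histidine-rich calcium binding protein (HRC) contacts both triadin and the pump. Junctophilin 2 (JPH2) joins the SR to the cell membrane where release takes place, and S100A1 is a small calcium-binding protein that acts on both the receptor and the pump. Immature cardiomyocytes from stem cells are known for a sparse SR store, with low calsequestrin and phospholamban.

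The largest fold differences lay in PLN and CASQ2, which were several-fold higher in passaged than in static cells on Day 16, and in SLN, which was nearly absent from passaged cells. RYR2 and ATP2A2 differed much less in size. In the test given below, however, their adjusted p-values in P-DF cultures on Day 16 were lower than those of PLN and SLN. For PLN, the mean FPKM (fragment counts scaled for exon length and for the library total) on Day 16 was 6.23 times that of NP-IWP2 cultures in P-DF cultures and 4.58 times in P-IWP2 cultures. The same ratios were 6.02 and 12.9 for CASQ2, 1.56 and 1.16 for RYR2, and 1.37 and 1.27 for ATP2A2. The labels name a kit for full-length cDNA and a kit for long-read libraries, while the processing notes name a short-read aligner. How far scaling by exon length fits these reads is not given in the sources used here. This bears on levels compared between genes, such as PLN with ATP2A2 or CASQ1 with CASQ2, and not on ratios of one gene between groups.

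**Figure D1:**
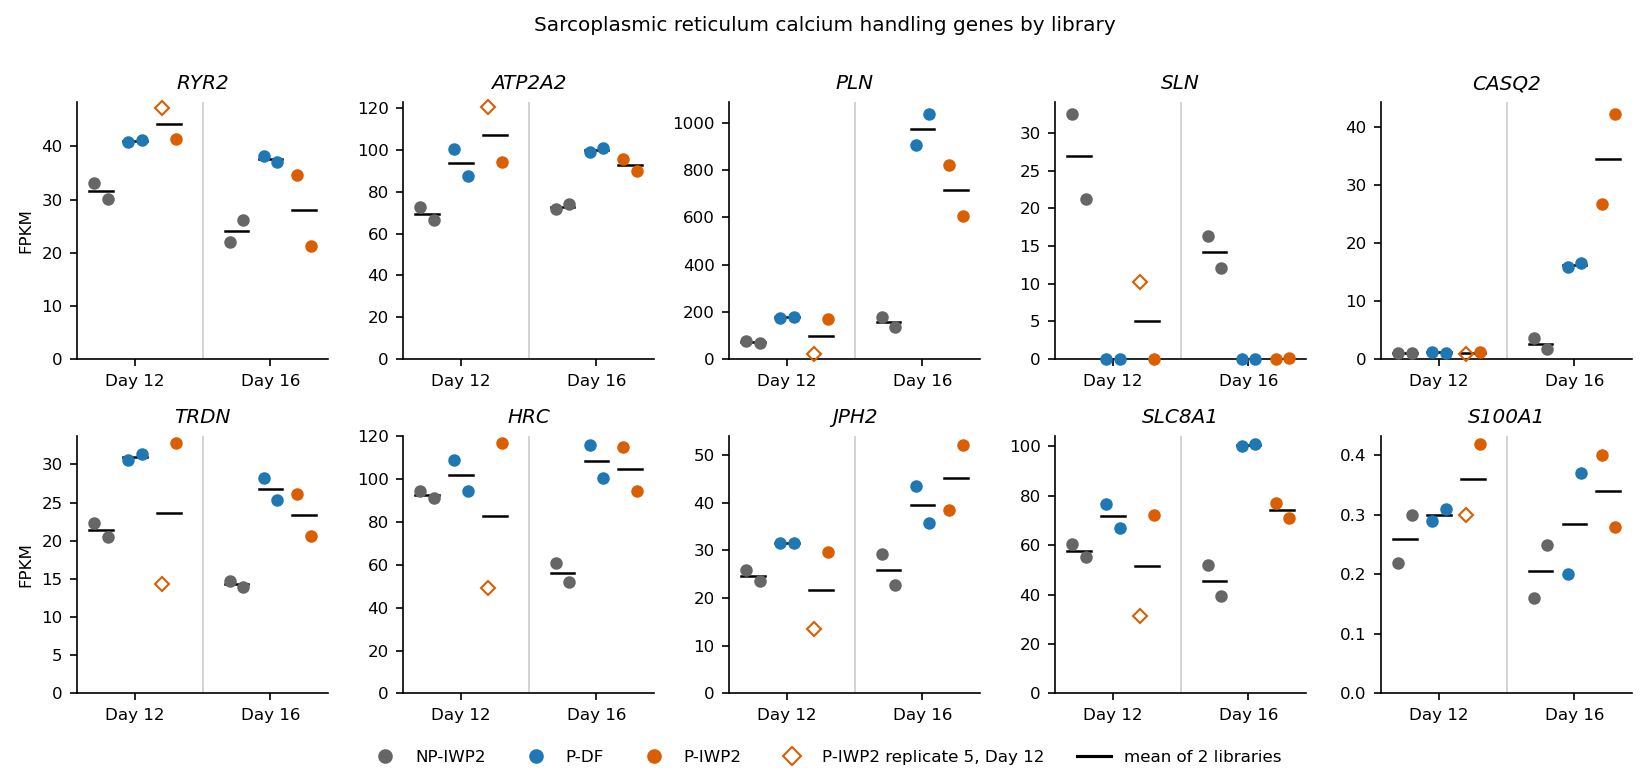
FPKM of the 10 genes in each of the 12 libraries, by day and treatment. Points are libraries, bars are means of 2 libraries, and the open diamond is P-IWP2 replicate 5 of Day 12. PLN and CASQ2 are highest in the passaged groups of Day 16, where PLN is 605 FPKM or more, and SLN is at or near 0 in 7 of the 8 passaged libraries.

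The libraries held between 14885589 and 19176239 counts (median 16452289), and 3 counts, the floor used for a gene with none, correspond to 0.156 to 0.202 CPM (counts scaled to the library total). One library stood apart. On log2 CPM, P-IWP2 replicate 5 of Day 12 had a Pearson r of 0.917 with replicate 6, against 0.985 to 0.991 within the other groups. Its 12 cardiomyocyte marker genes summed to 2943 FPKM, against 6883 FPKM in replicate 6. Fibroblast and epicardial markers summed to 755 and 142 FPKM in it, against 44.3 and 0.74 FPKM in replicate 6. The model pools the spread of all 6 groups, and counts of genes are given with and without this library, and without replicate 6 in its place. On Day 16, the cardiomyocyte list summed to between 4860 and 7905 FPKM in NP-IWP2 libraries and between 11128 and 17655 FPKM in the 4 passaged libraries, with all 12 genes detected in every library. Fibroblast markers summed to 1361 and 1385 FPKM in NP-IWP2 cultures on Day 16 and to between 23.9 and 38.8 FPKM in passaged cells. Epicardial markers summed to 66.9 and 97.1 FPKM against 0.82 FPKM or less, with TCF21 at 0 in 3 of the 4 passaged libraries. Hepatic markers summed to between 720 and 879 FPKM against 20.1 FPKM or less. Skeletal muscle markers were at 2.98 FPKM or less in sum in every library, with MYF5 at 0 in all 12. Bulk RNA-seq cannot tell fewer cells of a type from less RNA per cell, and the part of these other cell types in the values below was not tested.

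The 10 genes were compared with edgeR's quasi-likelihood test in one model of the 6 groups, and a gene was called at a Benjamini-Hochberg adjusted p under 0.05 over the 19505 genes tested. All 10 genes passed the filter on low counts. On Day 16, P-DF cultures differed from NP-IWP2 cultures in 6 of the 10 genes, 5 higher (RYR2, ATP2A2, PLN, CASQ2 and SLC8A1) and SLN lower, where 15.3% of all genes were called. P-IWP2 cultures differed in 4, with ATP2A2, PLN and CASQ2 higher and SLN lower, where 17.1% of all genes were called. The median log2 fold change (log2FC) of the 10 genes was 1.00 in each of these comparisons, and the median over all genes was close to 0, at -0.02 and -0.03. When P-IWP2 replicate 5 of Day 12 was left out, 9 of the 10 passed on Day 16 in P-DF cultures, where 32.4% of all genes were called, and 9 in P-IWP2 cultures, where the share was 34.8%. S100A1 was the gene not called. The Day 16 count of P-DF cultures was also 9 without replicate 6 of that group, where 31.9% of all genes were called. It was 1, CASQ2, without NP-IWP2 replicate 1 or 2 or P-DF replicate 3 or 4 of Day 16. It was 3 (CASQ2, ATP2A2 and RYR2) without NP-IWP2 replicate 1 or 2 or P-DF replicate 4 of Day 12 or P-IWP2 replicate 5 or 6 of Day 16, and 4 without P-DF replicate 3 of Day 12, where SLN was called as well. Over these 10 libraries the share of all genes called ranged from 2.59% to 12.4%. In P-IWP2 cultures, the Day 16 count was 9 without replicate 6 of the Day 12 P-IWP2 group, where 34.2% of all genes were called. CASQ2 alone was called without any of the 4 NP-IWP2 libraries or P-IWP2 replicate 5 of Day 16. CASQ2 and ATP2A2 were called without any of the 4 P-DF libraries, and CASQ2 and RYR2 without P-IWP2 replicate 6 of Day 16, with between 4.21% and 12.3% of all genes called.

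On Day 12, edgeR called 0 of the 10 genes between P-DF and NP-IWP2 cultures, where 4.01% of all genes were called, with 3 at an unadjusted p under 0.05, while DESeq2 called 2 (SLN and ATP2A2) and limma 1 (SLN). It also called 0 between P-IWP2 and NP-IWP2 cultures, where 1.66% of all genes were called, with 2 at an unadjusted p under 0.05, and DESeq2 and limma called 1 each, ATP2A2. With that P-IWP2 replicate 5 left out, edgeR called 4 genes in each comparison on Day 12, ATP2A2, PLN and TRDN higher and SLN lower. The share of all genes called was then 21.9% for P-DF and 15.0% for P-IWP2 cultures. Without replicate 6 in its place, 4 genes were called in P-DF cultures, where 21.5% of all genes were called, and 7 in P-IWP2 cultures, 1 higher and 6 lower, where 14.3% were. A P-IWP2 group of 1 library is assumed to vary like the other groups in these fits.

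**Figure D2:**
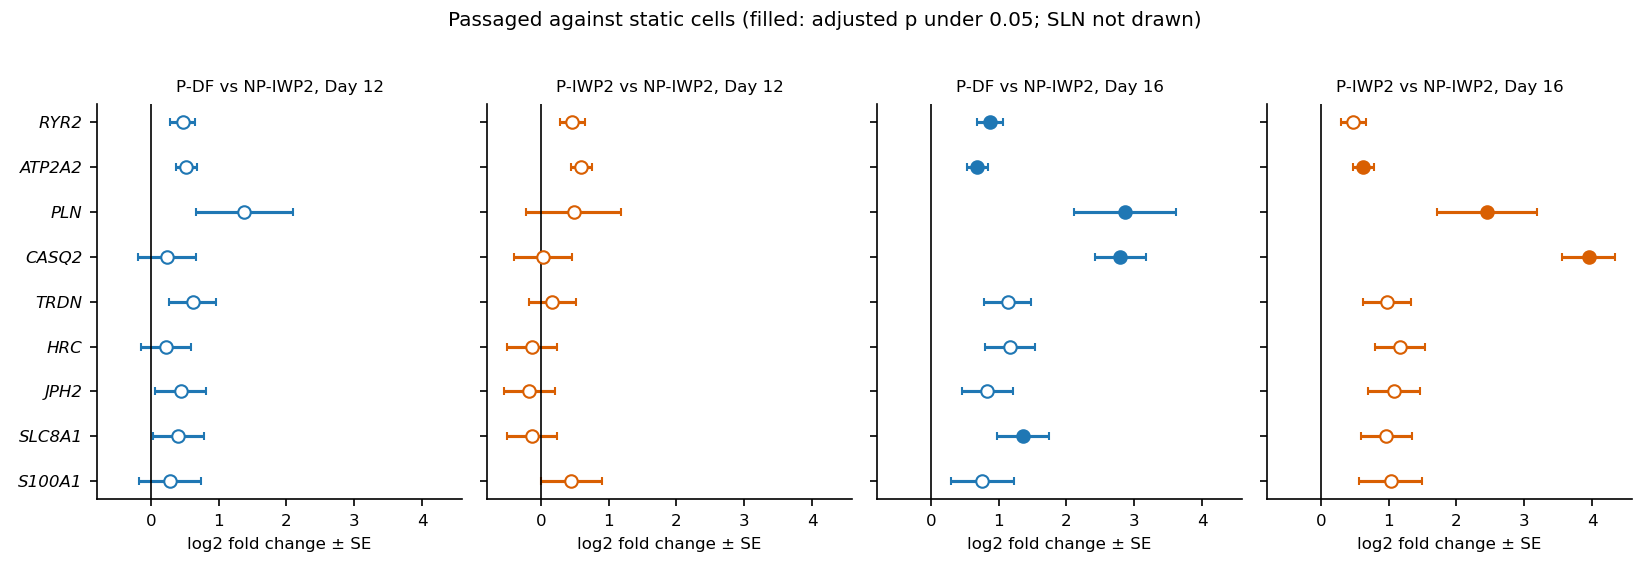
log2FC of 9 genes in passaged against NP-IWP2 cultures on each day, from edgeR with all 12 libraries. Bars are 1 standard error, filled points passed an adjusted p of 0.05, and SLN is not drawn because its counts were 0 in most passaged libraries. The largest Day 16 values are those of CASQ2 in P-IWP2 cultures (3.95) and of PLN in P-DF cultures (2.86).

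Among the genes of calcium release, RYR2 (ENSG00000198626, chromosome 1 from 237042184 to 237833988 of GRCh38, plus strand) encodes the release channel. On Day 12 it had 33.1 and 30.1 FPKM in NP-IWP2, 40.9 and 41.3 FPKM in P-DF and 47.1 and 41.4 FPKM in P-IWP2 libraries. On Day 16 the values were 22.0 and 26.3, 38.1 and 37.0, and 34.7 and 21.2 FPKM in the same order. Both P-DF libraries lay above both NP-IWP2 libraries on each day, whereas P-IWP2 replicate 6 of Day 16 had the lowest FPKM of all 12 libraries. FPKM carries no TMM scaling (the normalization used by edgeR). The TMM factor of that library was 0.814, against 0.989 and 1.07 in the NP-IWP2 libraries of Day 16. The edgeR fit therefore sets it higher relative to them than FPKM does. The Day 16 log2FC was 0.87 in P-DF cultures (standard error, SE, 0.19; edgeR adjusted p = 0.0157). In P-IWP2 cultures it was 0.48 (SE 0.19, adjusted p = 0.106), not called. Without replicate 6 it was 0.74, with an adjusted p of 0.0371 from edgeR, and without replicate 5 of Day 16 it was 0.16.

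CASQ2 (ENSG00000118729, chromosome 1 from 115700021 to 115768714, minus strand) encodes the calcium-binding protein of the SR lumen, calsequestrin 2. It was scarce on Day 12, with 1.04 and 1.11 FPKM in NP-IWP2, 1.30 and 1.10 FPKM in P-DF and 0.90 and 1.31 FPKM in P-IWP2 libraries, or 38 to 58 counts a library. On Day 16 it had 3.59 and 1.78 FPKM in NP-IWP2, 15.8 and 16.5 FPKM in P-DF and 26.7 and 42.3 FPKM in P-IWP2 libraries. The 3 groups did not overlap on Day 16, and each library of Day 16 was above every library of Day 12. The Day 16 log2FC against NP-IWP2 cultures was 2.80 in P-DF cultures (SE 0.38, edgeR adjusted p = 0.00214, higher in 2 of 2 libraries). In P-IWP2 cultures it was 3.95 (SE 0.39, edgeR adjusted p = 0.000477, higher in 2 of 2 libraries). CASQ2 was called in both comparisons whichever of the 12 libraries was left out. Without NP-IWP2 replicate 1 of Day 16, the higher of the static pair, the log2FC was 3.47 and 4.63.

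TRDN (ENSG00000186439, chromosome 6 from 123216339 to 123637093, minus strand), the gene of triadin, had 14.7 and 14.0 FPKM in NP-IWP2 cultures on Day 16, 28.2 and 25.3 FPKM in P-DF and 26.1 and 20.7 FPKM in P-IWP2 cultures. The passaged libraries lay above the static ones, with a log2FC of 1.13 in P-DF cultures (SE 0.35, adjusted p = 0.0580) and 0.98 in P-IWP2 cultures (SE 0.35, adjusted p = 0.0845). On Day 12 it had 22.3 and 20.5 FPKM in NP-IWP2, 30.5 and 31.3 FPKM in P-DF, and 14.4 and 32.8 FPKM in P-IWP2 libraries. HRC (ENSG00000130528, chromosome 19 from 49151198 to 49155396, minus strand), whose protein binds calcium in the SR, had 60.8 and 52.0 FPKM in NP-IWP2 cultures on Day 16, 116 and 101 FPKM in P-DF and 115 and 94.6 FPKM in P-IWP2 cultures. Passaged and static libraries did not overlap there either, with a log2FC of 1.17 in P-DF (SE 0.37, adjusted p = 0.0631) and 1.16 in P-IWP2 cultures (SE 0.37, adjusted p = 0.0601). The P-DF and P-IWP2 libraries did overlap. On Day 12, HRC had 94.6 and 91.1 FPKM in NP-IWP2, 109 and 94.7 FPKM in P-DF and 49.1 and 117 FPKM in P-IWP2 cultures. Neither gene was called on Day 16, but without P-IWP2 replicate 5 of Day 12 edgeR gave TRDN an adjusted p of 7.73e-06 in P-DF and 2.75e-05 in P-IWP2 cultures, and HRC 2.19e-05 and 2.31e-05. TRDN-AS1 lies on the opposite strand of TRDN and shares no exon bases with it.

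JPH2 (ENSG00000149596, chromosome 20 from 44106590 to 44187188, minus strand), which holds the SR against the cell membrane, had 25.9 and 23.5 FPKM in NP-IWP2, 31.6 and 31.6 FPKM in P-DF and 13.4 and 29.8 FPKM in P-IWP2 cultures on Day 12. On Day 16 it had 29.2 and 22.8, 43.5 and 35.7, and 38.4 and 52.1 FPKM. All 4 passaged libraries of Day 16 lay above the static ones. The log2FC was 0.83 in P-DF cultures (SE 0.38, adjusted p = 0.167) and 1.08 in P-IWP2 cultures (SE 0.38, adjusted p = 0.0806), neither called. Both were called by edgeR without P-IWP2 replicate 5 of Day 12, with an adjusted p of 0.00359 and 0.000549.

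S100A1 (ENSG00000160678, chromosome 1 from 153627926 to 153632039, plus strand) was barely detected, with 9 to 22 counts a library and 0.42 FPKM at most. It had 9 and 12 counts in NP-IWP2 cultures on Day 16, 10 and 20 in P-DF cultures and 22 and 16 in P-IWP2 cultures. P-DF and NP-IWP2 libraries overlapped on Day 16, with a log2FC of 0.76 (SE 0.47, adjusted p = 0.301 from edgeR). Both P-IWP2 libraries lay above both NP-IWP2 libraries, with a log2FC of 1.03 (SE 0.46, adjusted p = 0.152 from edgeR). Neither was called, and at these counts a difference of this size may be missed. The gene shares 235 exon bases with S100A13 on the opposite strand, which had 145 to 715 counts, and whether the authors counted by strand is not given in the sources used here.

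For calcium uptake, ATP2A2 (ENSG00000174437, chromosome 12 from 110280756 to 110351093, plus strand) encodes the SR pump. It was the steadiest of the abundant genes. On Day 12 it had 72.7 and 66.3 FPKM in NP-IWP2, 100.3 and 87.5 FPKM in P-DF and 120.4 and 94.3 FPKM in P-IWP2 libraries, and on Day 16 71.8 and 74.0, 98.8 and 101, and 95.5 and 90.0 FPKM. Every passaged library lay above every static library on each day. The log2FC for Day 16 was 0.68 in P-DF cultures (SE 0.15, edgeR adjusted p = 0.0180) and 0.62 in P-IWP2 cultures (SE 0.15, edgeR adjusted p = 0.0238). On Day 12 it was 0.52 and 0.60 (adjusted p = 0.0895 and 0.111), not called.

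PLN (ENSG00000198523, chromosome 6 from 118548296 to 118561716, plus strand) encodes phospholamban, the main brake of the pump in the ventricle. On Day 12 it had 74.9 and 69.1 FPKM in NP-IWP2, 174 and 179 FPKM in P-DF, and 22.5 and 170 FPKM in P-IWP2 libraries, where the low value was that of replicate 5. On Day 16 it had 177 and 135 FPKM in NP-IWP2, 905 and 1038 FPKM in P-DF and 822 and 605 FPKM in P-IWP2 libraries. The lowest passaged library of Day 16 was thus above the highest static one. The Day 16 log2FC was 2.86 in P-DF cultures (SE 0.75, edgeR adjusted p = 0.0327, higher in 2 of 2 libraries). In P-IWP2 cultures it was 2.46 (SE 0.74, edgeR adjusted p = 0.0489, higher in 2 of 2 libraries). The edgeR adjusted p without P-IWP2 replicate 5 of Day 12 was 8.10e-08 and 2.79e-07. Both calls were lost when any one of the other libraries apart from replicate 6 of that group was left out. On Day 12 the log2FC was 1.38 in P-DF cultures (adjusted p = 0.290). It was 0.49 in P-IWP2 cultures (adjusted p = 0.897), with 1.33 without replicate 5 and -1.83 without replicate 6. PLN lies within CEP85L, on the opposite strand, and shares no exon bases with it.

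SLN (ENSG00000170290, chromosome 11 from 107707378 to 107719693, minus strand) encodes sarcolipin, the pump inhibitor of atrial and skeletal muscle. It had 526 and 315 counts in NP-IWP2 cultures on Day 12 (32.5 and 21.2 FPKM) and 283 and 176 on Day 16 (16.4 and 12.1 FPKM). P-DF cultures had 0 counts in all 4 libraries. P-IWP2 cultures had 145 and 0 counts on Day 12, where replicate 5 held the 145, and 0 and 2 on Day 16. Against a floor of 3 counts over the group, SLN was at least 253-fold lower in P-DF than in NP-IWP2 cultures on Day 12 and at least 148-fold lower on Day 16. In P-IWP2 cultures on Day 16 the ratio of CPM was 243-fold, with an exact 95% counting interval from 67.0 to 2014 that covers counting error only. The adjusted p from edgeR was 0.0597 in P-DF cultures on Day 12, 0.0403 on Day 16 and 0.0435 in P-IWP2 cultures on Day 16, and without P-IWP2 replicate 5 of Day 12 it was 1.07e-06, 2.35e-06 and 2.97e-06.

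Epicardial and fibroblast markers were high in the NP-IWP2 libraries and in P-IWP2 replicate 5 of Day 12, which held SLN. Fibroblast markers summed to 794 and 783 FPKM in NP-IWP2 cultures on Day 12 and to 755 FPKM in that replicate 5. In the other passaged libraries of Day 12 they summed to 41.9 and 32.8 FPKM (P-DF) and to 44.3 FPKM (P-IWP2 replicate 6). In NP-IWP2 cultures SLN went from 32.5 and 21.2 FPKM on Day 12 to 16.4 and 12.1 FPKM on Day 16. Epicardial markers summed to 66.9 and 97.1 FPKM there on Day 16. Hepatic markers summed to 606 and 425 FPKM in NP-IWP2 cultures on Day 12 and to 8.11 FPKM in P-IWP2 replicate 5. Epicardial markers summed to 38.7 and 59.5 FPKM in NP-IWP2 cultures on Day 12 and to 142 FPKM in P-IWP2 replicate 5, the passaged library with SLN, against 0.44 to 0.74 FPKM in the other 3 passaged libraries of Day 12. Atrial markers summed to 1431 and 1652 FPKM in NP-IWP2 and to 1677 and 1768 FPKM in P-DF cultures on Day 12, where P-DF cultures had no SLN counts, and to 931 FPKM in P-IWP2 replicate 5 against 1731 FPKM in replicate 6. On Day 16 they summed to 519 and 465 FPKM in NP-IWP2, 236 and 201 FPKM in P-DF and 345 and 626 FPKM in P-IWP2 cultures. NP-IWP2 cultures thus had a higher atrial sum than P-DF cultures on Day 16 but not on Day 12. Of the 8 atrial genes, NR2F1 had 0 counts in P-DF replicate 4 of Day 12 and in every passaged library of Day 16. It had counts in the remaining libraries, among them P-DF replicate 3 and P-IWP2 replicate 6 of Day 12, which held no SLN. The genes with the pattern over the 12 libraries most like that of SLN were ELN, CSF2RB and RERG (Pearson r on log2 CPM 0.994, 0.991 and 0.988). With SLN at or near 0 in most passaged libraries, these r mostly reflect which libraries held it. Which cells of the static culture held SLN was not tested.

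The balance of inhibitor and pump transcripts was set out within each library, as a ratio of FPKM. The ratio of PLN to ATP2A2 was 1.03 and 1.04 in NP-IWP2 cultures on Day 12 and 2.47 and 1.82 on Day 16. In P-DF cultures it was 1.73 and 2.05 on Day 12 and 9.16 and 10.3 on Day 16. P-IWP2 cultures had 0.187 and 1.81 on Day 12 and 8.60 and 6.73 on Day 16. On the log2 scale, the Day 16 ratio exceeded that of NP-IWP2 cultures by 2.20 for P-DF and by 1.84 for P-IWP2, with a pooled SD of 0.23 and 0.28, n = 2 libraries each. The Day 12 difference was 0.86 in P-DF cultures (pooled SD 0.12). In P-IWP2 cultures on Day 12, replicate 5 alone set the sign: the difference was -0.84, within its pooled SD of 1.64, and 0.80 without that library. SLN was at 0.448 and 0.320 of the ATP2A2 level in NP-IWP2 cultures on Day 12, at 0.228 and 0.163 on Day 16, and at 0 in all P-DF libraries. These ratios are given as values, without a test.

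**Figure D3:**
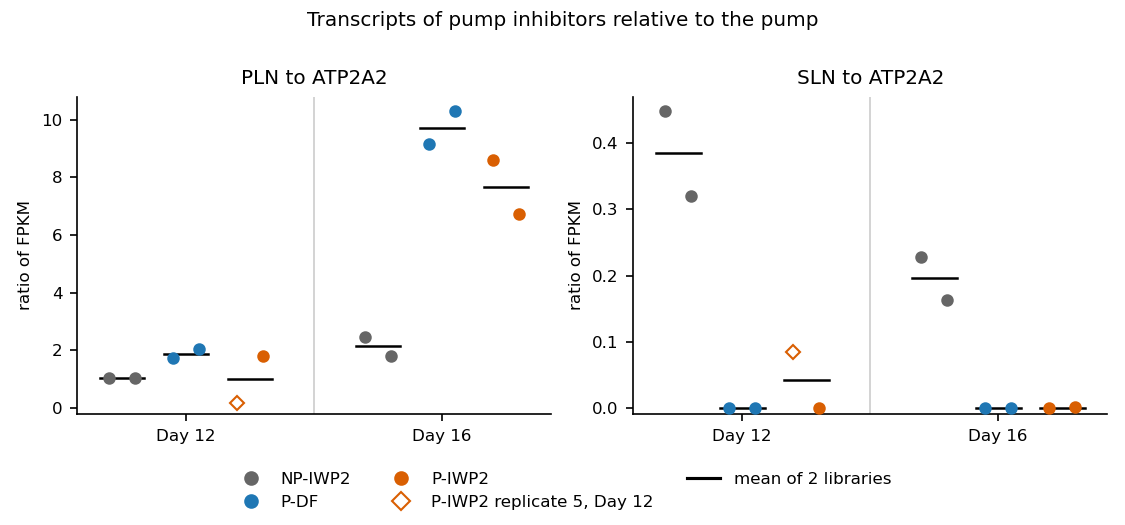
Ratio of PLN and of SLN to ATP2A2 FPKM in each library, on linear axes from 0. The PLN ratio of the 4 passaged libraries on Day 16 is between 6.73 and 10.3, above 2.47 and 1.82 in NP-IWP2 cultures, and the SLN ratio is above 0.01 only in the NP-IWP2 libraries and in P-IWP2 replicate 5 of Day 12.

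SLC8A1 (ENSG00000183023, chromosome 2 from 40097270 to 40611053, minus strand), the sodium-calcium exchanger of the cell membrane, had 60.4 and 55.2 FPKM in NP-IWP2, 76.5 and 67.1 FPKM in P-DF and 31.4 and 72.1 FPKM in P-IWP2 cultures on Day 12. On Day 16 it had 51.8 and 39.4, 100.1 and 101, and 77.1 and 71.0 FPKM. The 3 groups of Day 16 did not overlap, with P-DF cultures highest. The log2FC was 1.36 in P-DF cultures (SE 0.38, edgeR adjusted p = 0.0418) and 0.97 in P-IWP2 cultures (SE 0.38, adjusted p = 0.108), the latter not called. The edgeR adjusted p without P-IWP2 replicate 5 of Day 12 was 2.10e-05 and 0.000330. SLC8A1-AS1, on the opposite strand, shares 2040 exon bases with the gene and had 30 to 112 counts, against 10762 or more for SLC8A1.

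P-IWP2 replicate 5 of Day 12, which stood apart, split the 10 genes. Among the 6 Day 12 libraries it had the highest FPKM of RYR2 (47.1) and ATP2A2 (120.4), and the lowest of PLN (22.5), CASQ2 (0.90), TRDN (14.4), HRC (49.1), JPH2 (13.4) and SLC8A1 (31.4). Relative to the mean log2 FPKM of the 12 cardiomyocyte genes, RYR2 was at -0.97 in it and between -2.46 and -2.35 in the other 5 libraries of Day 12. ATP2A2 was at 0.38, against -1.38 to -1.16. HRC was at -0.91 in it, within the range of -1.26 to -0.75 of the other libraries.

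Because the cardiomyocyte genes as a group were higher in passaged cells on Day 16, each gene was also set against the mean log2 FPKM of those 12 genes in its library. None of the 10 genes is in that list. By this measure PLN exceeded its NP-IWP2 level on Day 16 by 1.69 in P-DF cultures (pooled SD 0.20) and by 1.10 in P-IWP2 cultures (pooled SD 0.25). CASQ2 was 1.72 and 2.65 higher (pooled SD 0.37 and 0.46). HRC differed by -0.02 and -0.20 and TRDN by -0.06 and -0.39, and SLC8A1 was 0.19 higher in P-DF and 0.38 lower in P-IWP2 cultures. RYR2 differed by -0.32 and -0.92, ATP2A2 by -0.51 and -0.74, and JPH2 by -0.35 and -0.29. The passaged-to-static difference of PLN and CASQ2 was thus larger than that of the cardiomyocyte list in both treatments, that of RYR2, ATP2A2 and JPH2 was smaller in both (although P-DF and NP-IWP2 libraries overlapped for RYR2), and the differences of HRC and TRDN in P-DF cultures were smaller than their pooled SD (0.05 and 0.13). Each value rests on 2 libraries a group and has no test. Ventricular marker genes summed to 743 and 1182 FPKM in NP-IWP2 libraries on Day 16 and to between 3984 and 4974 FPKM in passaged libraries. The genes were not set against that list.

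**Figure D4:**
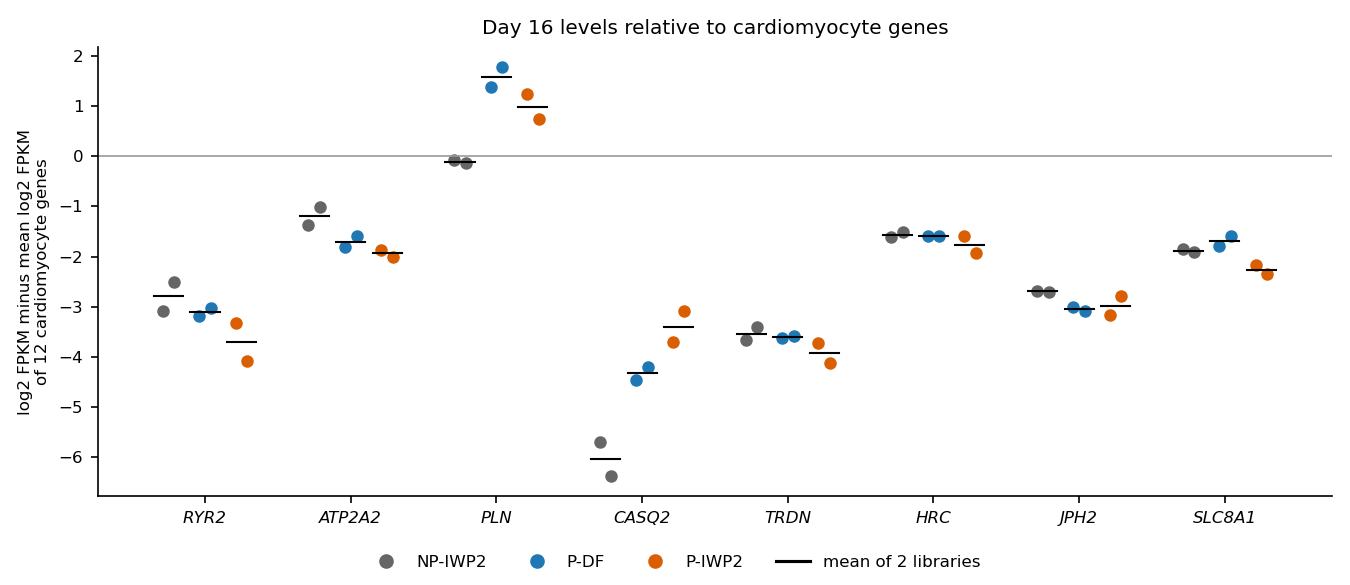
Day 16 log2 FPKM of 8 genes minus the mean log2 FPKM of 12 cardiomyocyte genes in the same library. Points are libraries, and bars are means of 2 libraries. PLN and CASQ2 lie higher in both passaged groups than in NP-IWP2 cultures, whereas ATP2A2 lies lower. SLN and S100A1 are left out because of their low counts.

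Upstream sequences are shown for PLN and CASQ2, whose fold differences on Day 16 were the largest among the genes with a promoter entry. That of RYR2 is shown as well, a gene with a smaller fold difference that was called in P-DF cultures. RefSeq promoters of GRCh38.p14, from 250 bases before to 50 after a gene's start, were matched for 9 of the 10 genes (all but SLN), 12 promoters in all. They were searched on both strands for the MEF2 element, the CArG box, the GATA motif AGATAA, the TATA motif TATAAA, the MCAT motif CATTCC and the E-box CANNTG. Capitals mark matches of the MEF2 element and of the GATA motif, and sequences run in the direction of the gene. The PLN promoter is at chr6:118548046-118548345 (plus strand), that of CASQ2 at chr1:115768665-115768964 (minus strand) and that of RYR2 at chr1:237041934-237042233 (plus strand).
PLN: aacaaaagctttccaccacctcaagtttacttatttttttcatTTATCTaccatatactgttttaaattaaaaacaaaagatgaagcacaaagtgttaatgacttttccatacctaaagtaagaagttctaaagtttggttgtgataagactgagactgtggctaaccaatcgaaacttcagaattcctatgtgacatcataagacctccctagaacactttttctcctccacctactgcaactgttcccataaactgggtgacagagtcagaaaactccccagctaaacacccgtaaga
CASQ2: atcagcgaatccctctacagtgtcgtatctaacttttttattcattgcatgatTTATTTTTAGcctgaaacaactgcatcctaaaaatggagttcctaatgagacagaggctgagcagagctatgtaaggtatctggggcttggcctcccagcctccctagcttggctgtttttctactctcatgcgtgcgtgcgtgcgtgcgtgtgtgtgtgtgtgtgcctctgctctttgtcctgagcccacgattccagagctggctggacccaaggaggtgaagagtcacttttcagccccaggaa
RYR2: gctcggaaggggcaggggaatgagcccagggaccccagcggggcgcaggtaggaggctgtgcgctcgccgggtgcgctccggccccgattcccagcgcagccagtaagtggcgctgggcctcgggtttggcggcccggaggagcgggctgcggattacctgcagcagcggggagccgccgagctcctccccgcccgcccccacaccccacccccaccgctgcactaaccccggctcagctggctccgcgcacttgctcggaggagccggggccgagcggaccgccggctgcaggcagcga

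The CASQ2 promoter held 1 match to the MEF2 element, starting at position -197 from the gene start, and 2.99% of the 35116 promoters in the table held one. Among the other promoters of the set, 1 of the 2 of ATP2A2 held 2 overlapping MEF2 matches. The PLN promoter held the GATA motif at position -207, found in 10.3% of all promoters, and so did 1 of the 3 of SLC8A1. The RYR2 promoter held neither. It held 1 MCAT motif, which 14.0% of all promoters held and which HRC also had. GC content was 36.7% in the PLN, 49.3% in the CASQ2 and 75.3% in the RYR2 promoter, against a median of 58.7% over all promoters. The TATA motif (11.5% of all promoters) was found in 1 promoter of SLC8A1 and the CArG box (1.29%) in none of the 12. E-boxes, in 68.7% of all promoters, were found for each of the 9 genes but JPH2. A match of letters is no evidence that a factor binds there.

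From Day 12 to Day 16, edgeR called 0 of the 10 genes in NP-IWP2 cultures, where 1.98% of all genes were called, with 1 at an unadjusted p under 0.05. DESeq2 called CASQ2 there and limma none. PLN and CASQ2 rose in P-DF cultures, where 13.6% of all genes were called, and PLN, CASQ2 and JPH2 rose in P-IWP2 cultures, where 27.0% were called. The rise of CASQ2 had a log2FC of 4.01 in P-DF cultures (SE 0.41, edgeR adjusted p = 0.000825) and 5.37 in P-IWP2 cultures (SE 0.43, adjusted p = 0.000420). For PLN it was 2.72 (SE 0.74, adjusted p = 0.0416) and 3.20 (SE 0.76, adjusted p = 0.0165). JPH2 rose by 1.44 in P-IWP2 cultures (SE 0.38, adjusted p = 0.0251), and its value of 0.58 in P-DF cultures was not called. In NP-IWP2 cultures the values were 1.45 for CASQ2 (SE 0.40, adjusted p = 0.101) and 1.24 for PLN (SE 0.71, adjusted p = 0.372). Without P-IWP2 replicate 5 of Day 12, edgeR called 4 genes in NP-IWP2 cultures, CASQ2 and PLN higher on Day 16 and TRDN and HRC lower, where 17.1% of all genes were called. It then called 5 in P-DF cultures, PLN, CASQ2, JPH2, SLC8A1 and ATP2A2, all higher, where the share was 29.2%, and in P-IWP2 cultures the same 3, where it was 23.7%. The P-DF count was also 5 without replicate 6 of the Day 12 P-IWP2 group (28.5% of all genes called), and was 1, CASQ2, without any one of the other 10 libraries (2.19% to 11.6%). In P-IWP2 cultures the count was 1, CASQ2, without replicate 6 of Day 16 (5.80% of all genes called) and 7 without replicate 6 of Day 12 (46.9%). The NP-IWP2 count was 4 without replicate 6 of the Day 12 P-IWP2 group (16.9%). In P-IWP2 cultures, the log2FC of PLN was 2.36 without replicate 5 of Day 12 and 5.52 without replicate 6, and that of JPH2 was 2.30 without replicate 6.

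An interaction term tested whether a treatment's distance from NP-IWP2 changed between Day 12 and Day 16. For P-DF cultures edgeR called 0 of the 10 genes, where 0.482% of all genes were called, with 1 at an unadjusted p under 0.05, and DESeq2 and limma called CASQ2. For P-IWP2 cultures it called CASQ2, where 1.84% of all genes were called: the log2FC against NP-IWP2 cultures was 3.92 more positive on Day 16 than on Day 12 (SE 0.57, adjusted p = 0.0155). That call was lost without NP-IWP2 replicate 1 or 2 of Day 12, NP-IWP2 replicate 2 of Day 16 or P-IWP2 replicate 6 of Day 16. Without NP-IWP2 replicate 1 of Day 16 the value was 4.60. Without P-IWP2 replicate 5 of Day 12, the interaction was called for 4 genes in P-DF cultures, where 7.62% of all genes were called, with PLN at 1.49, CASQ2 at 2.56, HRC at 0.95 and SLC8A1 at 0.96. In P-IWP2 cultures it was then called for 2, where the share was 7.89%, with PLN at 1.13 and CASQ2 at 3.58. Without replicate 6 in its place the counts were 4 and 7, where 7.52% and 29.3% of all genes were called.

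Passaging with IWP2 was compared with passaging alone on each day. On Day 12 edgeR called 0 of the 10 genes and 0% of all genes between P-IWP2 and P-DF cultures, with 1 of the 10 and 2062 of all genes at an unadjusted p under 0.05, and neither DESeq2 nor limma called any of the 10. On Day 16 it again called 0 of the 10 and 0% of all genes, with 1 of the 10 and 1567 of all genes at an unadjusted p under 0.05, and DESeq2 and limma called none of the 10. The lowest p on Day 16 was that of CASQ2, with a log2FC of 1.16 (SE 0.35, adjusted p = 0.463). Without P-IWP2 replicate 5 of Day 12, CASQ2 alone of the 10 was called on Day 16, with the same log2FC of 1.16 (SE 0.26, adjusted p = 0.0321), where 2.49% of all genes were called. It was also the only one called without replicate 6 of that group, where 2.44% of all genes were called. On Day 12, 6 of the 10 and 29.2% of all genes were called without replicate 6, when the group was left with replicate 5 only.

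Paralogs and other relatives of the 10 genes were looked at as well, and most of these were nearly silent. RYR1, RYR3, ATP2A1, ATP2A3, SLC8A2, SLC8A3, STRIT1 and MRLN stayed at 1.76 FPKM or less in every library, and JPH3 was between 3.28 and 4.97 FPKM. CASQ1, calsequestrin of fast skeletal muscle, followed CASQ2 on Day 16. It had 5.15 and 2.91 FPKM in NP-IWP2, 12.4 and 10.5 FPKM in P-DF and 17.6 and 23.0 FPKM in P-IWP2 cultures, so that the 3 groups did not overlap. Its Day 16 log2FC was 1.72 in P-DF (SE 0.37, edgeR adjusted p = 0.0166) and 2.60 in P-IWP2 cultures (SE 0.38, adjusted p = 0.00321). On Day 12 it was between 2.40 and 4.23 FPKM in all 6 libraries, above CASQ2. In NP-IWP2 cultures the mean of CASQ1 was still above that of CASQ2 on Day 16, with 4.03 against 2.69 FPKM, and in passaged cells the order was the reverse, with 11.5 against 16.2 FPKM in P-DF and 20.3 against 34.5 FPKM in P-IWP2 cultures. Of the 10 skeletal muscle markers, 3 to 5 had counts in each passaged library of Day 16. Their sum was 0.52 and 0.42 FPKM in P-DF and 0.60 and 2.98 FPKM in P-IWP2 libraries, against 0.54 and 0.60 FPKM in NP-IWP2 libraries, with MYOD1 and MYF5 at 0 in all 6. P-IWP2 replicate 6 of Day 16 had the highest sum and the highest CASQ1 of all 12 libraries, and the part of skeletal muscle cells in the CASQ1 values was not tested. JPH1 had 4.30 and 2.91 FPKM in NP-IWP2 and 9.15 and 10.5 FPKM in P-DF cultures on Day 12 (log2FC 1.53, adjusted p = 0.149), not called. JPH4 had 1.87 and 2.91 FPKM in NP-IWP2 cultures on Day 16, 0.05 and 0 FPKM in P-DF libraries and 0 in both P-IWP2 libraries.

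**Figure D5:**
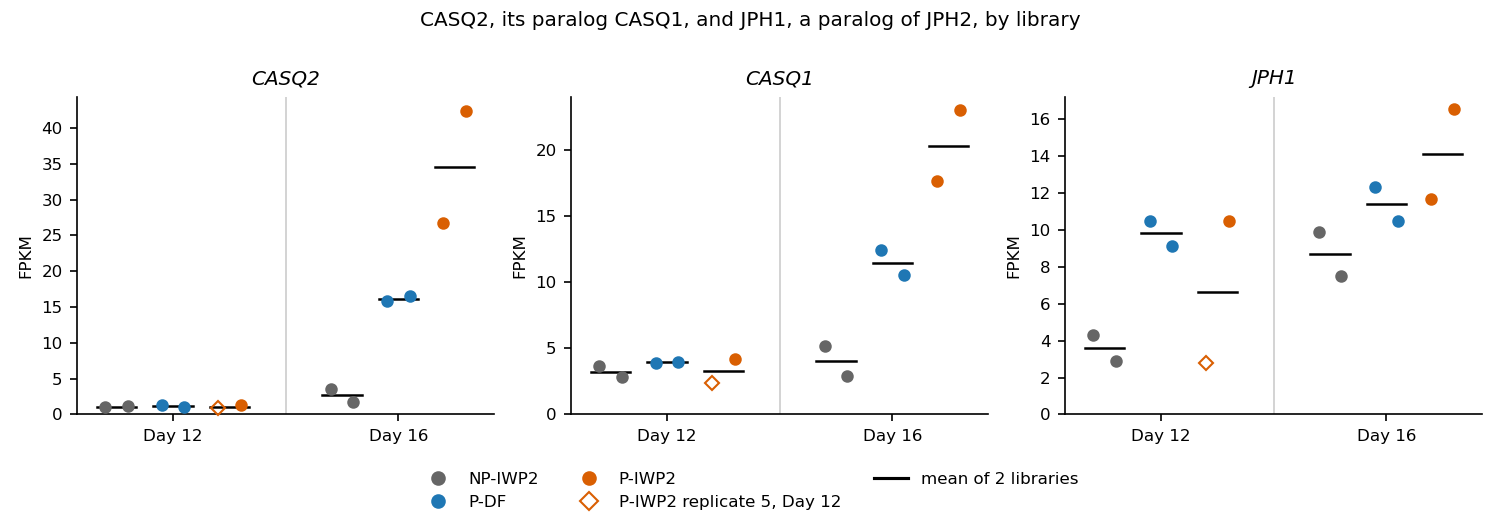
FPKM of CASQ2, CASQ1 and JPH1 in each library, on linear axes from 0, with bars at the means of 2 libraries. On Day 16 the P-IWP2 libraries are highest for both calsequestrins (26.7 and 42.3 FPKM for CASQ2, 17.6 and 23.0 FPKM for CASQ1).

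A wider list of 60 calcium handling genes, of which 56 passed the filter, held regulators, channels and binding proteins outside the 10. On Day 16, 17 of the 56 were called in P-DF against NP-IWP2 cultures, 9 higher and 8 lower, where 15.3% of all genes were called, and 20 in P-IWP2 cultures, 10 higher and 10 lower, where 17.1% were. The 10 main genes are not in this list. The 3 with the largest positive log2FC in P-DF cultures were CASQ1, CAMK2B (1.55), a subunit of calmodulin kinase II, and SRL (1.54), the SR protein sarcalumenin. In P-IWP2 cultures they were CAV3 (3.17), a caveolin of muscle, CASQ1 and SRL (1.86), although CAV3 did not exceed 0.75 FPKM and had 3 counts in each NP-IWP2 library. PDE3A, a phosphodiesterase that breaks down cyclic AMP near the pump, was lower, with 5.29 and 5.86 FPKM in NP-IWP2, 0.20 and 0.26 FPKM in P-DF and 0.05 and 0.08 FPKM in P-IWP2 cultures (log2FC -4.35 and -6.10, adjusted p = 0.0103 and 0.00413 from edgeR). JPH4 was at 0 counts in P-IWP2 cultures, at least 154-fold below NP-IWP2 cultures against the floor of 3 counts over the group, and had 4 counts in P-DF cultures against 437. SLC8A3 had 0 counts in P-DF cultures and 1 in P-IWP2 cultures against 26 in NP-IWP2 cultures. With any one of the 10 libraries other than the Day 12 P-IWP2 pair left out, the count for Day 16 was between 1 and 16 in P-DF cultures and between 5 and 15 in P-IWP2 cultures, with 2.59% to 12.4% and 4.21% to 12.3% of all genes called. It was lowest in P-DF cultures without P-DF replicate 3 or 4 of Day 16 (1 each) or NP-IWP2 replicate 2 of Day 16 (2), and in P-IWP2 cultures without P-IWP2 replicate 6 (5) or NP-IWP2 replicate 2 of Day 16 (7).

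On Day 12, 3 of the 56 were called in P-DF cultures (4.01% of all genes), all lower: PDE3A (-3.60), ATP2A3 (-2.71) and ITPR3 (-2.16), a receptor for inositol trisphosphate. In P-IWP2 cultures 2 were called (1.66% of all genes), both higher: PDE4D (1.48), another phosphodiesterase, and PPP1R1A (0.86), an inhibitor of protein phosphatase 1. From Day 12 to Day 16 edgeR called 0 in NP-IWP2 cultures, with 13 at an unadjusted p under 0.05, while DESeq2 called 4 and limma 3. It called 12 in P-DF cultures, 8 up and 4 down, and 24 in P-IWP2 cultures, 13 up and 11 down, where 13.6% and 27.0% of all genes were called. AKAP6, which anchors protein kinase A near the release channel, rose in both passaged treatments (2.85 and 3.40), and so did CASQ1, by 1.80 and 3.00. ATP2A3 (3.26) and S100A4 (2.05) were the other largest rises in P-DF cultures, although ATP2A3 had only 9 and 3 counts there on Day 12. CAV3, at 1 and 0 counts in P-IWP2 cultures on Day 12, had 21 and 28 on Day 16. ITPR1 (-2.62 and -2.19), another receptor for inositol trisphosphate, fell in both passaged treatments, ATP2A1 fell in P-DF cultures (-1.78) and PDE3A in P-IWP2 cultures (-5.40). The P-IWP2 libraries of Day 12 had 0.65 and 7.38 FPKM of PDE3A, so the size of its fall, and of its interaction given below, is uncertain. RYR1 was called lower in both passaged treatments, with 70 and 54 counts on Day 12 against 5 and 0 on Day 16 in P-DF cultures and 21 and 85 against 3 and 1 in P-IWP2 cultures. Without P-IWP2 replicate 5 of Day 12, 58 genes of the list passed the filter, with 28 and 23 called on Day 12 in P-DF and P-IWP2 cultures (21.9% and 15.0% of all genes) and 36 and 42 on Day 16 (32.4% and 34.8%). Over time 15, 32 and 24 were called in NP-IWP2, P-DF and P-IWP2 cultures (17.1%, 29.2% and 23.7%). The interaction of P-IWP2 with day was called for 4 genes of the list (1.84% of all genes), CASQ1 (2.56, with an adjusted p that rounds to the threshold of 0.05) and CAMK2D (1.59), a subunit of calmodulin kinase II, more positive on Day 16 and PDE3A (-5.69) and PDE4D (-1.86) more negative. The interaction of P-DF with day was called for 0 of the 56, with 11 at an unadjusted p under 0.05, while DESeq2 called 5 and limma 1. Between P-IWP2 and P-DF cultures edgeR called 0 of the 56 on each day, with 9 at an unadjusted p under 0.05 on Day 12 and 4 on Day 16, and DESeq2 called 1 on Day 12 and limma none.

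Over the 12 libraries, the 10 genes fell into loose runs of similar pattern. On log2 CPM, Pearson r was 0.934 between PLN and JPH2, 0.892 between PLN and CASQ2, 0.947 between TRDN and HRC, and 0.940 between HRC and SLC8A1. RYR2 was least like these, with an r of 0.262 with PLN and 0.092 with CASQ2. SLN had a negative r with the other 9 genes, from -0.875 with TRDN to -0.502 with CASQ2. Its counts were 0 to 2 in every passaged library but P-IWP2 replicate 5 of Day 12, so these r mostly reflect which libraries held SLN. The genes most like PLN were PDE4DIP (0.992), AFG3L2 (0.990) and SORBS2 (0.989). For CASQ2 they were LLPH (0.993), SLMAP (0.991) and MMP24 (0.989), for JPH2 USP28 (0.995), MYL4 (0.989) and NEXN (0.988), and for ATP2A2 CLIC5 (0.987), RAB3IP (0.985) and CCDC92 (0.966). TRDN was most like SEMA4D (0.977), NEBL (0.975) and PGPEP1 (0.973), HRC most like ZNF710-AS1 (0.982), IDH3B (0.978) and CYC1 (0.977), and SLC8A1 most like NNT (0.983), ABLIM1 (0.981) and LAPTM4B (0.981). The best matches were weaker for RYR2, with ARL9 (0.921), NAAA (0.916) and SATB1 (0.912), and for S100A1, with DHRS13 (0.936), CPLANE2 (0.912) and DELE1 (0.902). These correlations describe 12 libraries in 6 groups, which share their depth and cell makeup, and were taken over 17131 genes.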

How the data were processed

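Bulk RNA-seq libraries of H1-derived cells were analysed, 2 for each of 3 treatments on each of 2 days. The deposited table holds, for each library, read counts per gene and FPKM made by the authors, who trimmed reads with Cutadapt 1.9.1, aligned them to hg38 with HISAT2 2.0.1 and counted them with HTSeq 0.6.1 per the labels and the study's methods. Deposited FPKM equalled the count divided by exon length and library total within 0.0051 for 100% of values, so they carry no TMM scaling. The strand setting of the counting is not given in the sources used here, and of the 61806 genes 20417 have no symbol.

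Counts were tested with edgeR 4.0.16 (TMM, filterByExpr, quasi-likelihood F-test) in one model of the 6 groups, with Benjamini-Hochberg adjustment over all genes that passed the filter. TMM factors were 0.814 to 0.884 in passaged and 0.989 to 1.07 in static libraries of Day 16, so edgeR fold changes lie above FPKM ratios there. Scaling by library totals instead moved the Day 16 median log2FC over all genes to -0.25 (P-DF) and -0.31 (P-IWP2). Alternatives were DESeq2 1.42.0, limma 3.58.1 on log2(FPKM + 1), no filter, total-count scaling, a fit of only the groups compared, a replicate block and each library left out in turn. Scripts were tested on simulated data. The 10 genes, the marker lists and the wider calcium list were chosen with earlier results of these data known. All 10 genes were described. From the wider list, up to 3 called genes with the largest log2FC in each direction were named for each comparison, and a few others were named after their values were seen. For each of the 10 genes, the 3 genes with the highest Pearson r on log2 CPM were named. Promoter sequences are from RefSeq. The main model did not pair samples by replicate number. The deviations of same-numbered libraries from their group means correlated at 0.0754, -0.00154 and -0.0310 between days. With 2 libraries a group this cannot settle whether same-numbered libraries share a differentiation, and the labels do not say.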

Additional observations from a re-analysis of the deposited data

Results flagged for a closer look

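In the edgeR fit of all 12 libraries, the passaging effect on CASQ2 was called as different between the days for P-IWP2 but not for P-DF cultures. Its log2FC between P-IWP2 and NP-IWP2 cultures was 0.03 on Day 12 and 3.95 on Day 16, and edgeR's interaction term for the difference was 3.92 (SE 0.57, adjusted p = 0.0155, higher in 2 of 2 P-IWP2 libraries on Day 16). With each library left out in turn the P-IWP2 term stayed between 3.47 and 4.60, but the call was lost in some of these fits. It was also lost in a fit of only the groups compared. CASQ2 had 38 to 58 counts a library on Day 12. For P-DF cultures the same term was 2.56 (SE 0.56, adjusted p = 0.0954 from edgeR), not called by edgeR but called by DESeq2 and by limma. Whether the P-IWP2 and P-DF terms differ was not tested, and no cause of the difference between days was tested.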

How the results depend on the processing

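Of 66 log2FC values of the 10 genes, 58 kept their sign in every setting and with each library left out. The 66 were chosen, with only some genes over time, for the interaction and between passaged treatments. Among them, the exceptions were small or rested on P-IWP2 replicates 5 and 6 of Day 12. Others changed sign without that replicate 5. In P-IWP2 cultures over time, SLN went from -5.77 to 3.25 and TRDN from 0.34 to -0.19. The SLN interaction of P-IWP2 with day went from -4.97 to 4.05. For P-IWP2 against NP-IWP2 cultures on Day 12, the log2FC with one library left out ranged from -1.83 to 1.33 for PLN (-0.20 with limma), -0.40 to 0.37 for CASQ2, -0.72 to 0.70 for TRDN, -1.06 to 0.42 for HRC, -1.03 to 0.36 for JPH2 and -1.03 to 0.41 for SLC8A1. Over time in NP-IWP2 cultures it ranged from -0.063 to 0.41 for JPH2 and from -0.50 to 0.013 for SLC8A1. With one library left out, the log2 difference in the ratio of PLN to ATP2A2 between P-IWP2 and NP-IWP2 cultures on Day 12, -0.84, became 0.80 without P-IWP2 replicate 5 and -2.47 without replicate 6. The Day 16 difference ranged from 1.98 to 2.41 in P-DF and from 1.63 to 2.06 in P-IWP2 cultures.

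The number of the 10 genes called moved more, and so did the share of all genes called, given in parentheses. For P-DF against NP-IWP2 cultures on Day 12 it was 0, but 2 with DESeq2 (8.17%), 1 with limma (5.53%), 3 with no filter (7.70%) and 7 in a fit of only the groups compared (29.8%), and for P-IWP2 cultures 0, but 1 with DESeq2 (3.26%), 1 with limma (2.82%) and 2 with no filter (3.79%). On Day 16 the P-IWP2 count of 4 became 7 with DESeq2 (20.1%), 2 with limma (18.0%), 8 with no filter (12.3%) and 8 with only the groups compared (29.2%). The P-DF count of 6 on Day 16 was 8 with DESeq2 (18.4%), 5 with limma (15.3%), 9 with no filter (11.6%), 9 with only the groups compared (40.1%) and 4 with total counts (17.6%). Between P-IWP2 and P-DF cultures it was 3 on Day 12 (4.18%) and 1 on Day 16 (1.60%) with no filter, and 1 on Day 16 with only the groups compared (1.56%). Over time, NP-IWP2 cultures had 1 with DESeq2 (5.56%), 3 with no filter (5.07%) and 5 with only the groups compared (28.3%), P-DF cultures 1 with limma (15.0%), 4 with no filter (9.50%) and 5 with only the groups compared (37.3%), and P-IWP2 cultures 6 with no filter (15.9%) and 0 with only the groups compared (0%). The interaction with day was called for 1 gene in P-DF cultures with DESeq2 (2.57%) and with limma (1.04%), 4 with no filter (2.79%) and 5 with only the groups compared (12.6%), and in P-IWP2 cultures for 7 with no filter (6.77%) and 0 with only the groups compared (0.194%). With one library left out, the count on Day 12 ranged from 0 to 4 for P-DF and 0 to 7 for P-IWP2 against NP-IWP2 cultures, and 0 to 6 between them. On Day 16 it ranged from 1 to 9, 1 to 9 and 0 to 1. Over time it ranged from 0 to 4 in NP-IWP2, 1 to 5 in P-DF and 1 to 7 in P-IWP2 cultures, and for the interaction from 0 to 4 in P-DF and 0 to 7 in P-IWP2 cultures. The cause of these moves was not tested.

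A replicate block could be fitted only over time within a treatment, since treatments share no replicate numbers. With the replicate block, 0, 1 and 3 of the 10 genes were called over time in NP-IWP2, P-DF and P-IWP2 cultures, PLN being lost in P-DF cultures, and 0 and 1 for the interactions. With 2 libraries a group the spread is poorly known, and S100A1, SLN after passaging and CASQ2 on Day 12 rest on few counts.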
